A study of Xenopus laevis with 46 samples.

Results

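At 6 hours post fertilisation (hpf), in the blastula, the vegetal pole (VP) region of Xenopus laevis embryos was compared with the animal pole (AP) region of embryos of the same age. The comparison took the 10 libraries of that time, 5 from VP and 5 from AP, of 46 libraries in the series. All embryos were wild type and were grown at 22 °C in dilute salt medium after an injection of 10 nl of 50 mM 5-ethynyl uridine (EU) at the 1-cell stage, for about 0.5 mM in the embryo. EU enters RNA as it is made and lets that RNA be biotinylated and captured on streptavidin, so the libraries were meant to hold newly made RNA. Every library was captured this way, and newly made RNA and older RNA carried through the capture cannot be told apart from these libraries. Experiment 1 gave 3 VP and 3 AP libraries, from 3 clutches that are biological replicates. Experiment 2 gave 2 VP and 2 AP libraries, which are technical replicates of 1 further clutch and were kept as a check. Below, values in experiment 1 follow the replicate numbers 1, 2 and 3, and those in experiment 2 the numbers 4 and 5.

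The frog egg is polarised before fertilisation. RNAs anchored in its vegetal cortex reach the vegetal cells, where some specify endoderm, some act in the dorsal axis, and others gather in the germ plasm, the cytoplasm that sets aside the germ line. The animal cells later form ectoderm. Zygotic transcription starts in small amounts in the cleaving embryo and becomes widespread at the mid-blastula transition, and Nodal ligands are among the earliest vegetal products.

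Deposited values were normalized read counts rounded to whole numbers, and each library of 6 hpf summed to between 1901519 and 2191058. They are not divided by gene length, so levels are compared between libraries and not between genes. Experiment 1 listed 9983, 8455 and 10024 genes above 0 in VP against 16995, 12314 and 10194 in AP. The VP libraries of experiment 1 thus had fewer detected genes than every AP library. Experiment 2 had 18575 and 17434 in VP against 21140 and 17187 in AP, which overlap. The step between low values showed that 1 read was worth about 2.2 in VP replicate 2, 3.5 in VP replicate 4 and 5.6 in AP replicate 5, which puts their depths near 990000, 540000 and 360000 reads. The depth of the other libraries is unknown.

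RNAs of the vegetal pole were present in the VP libraries at many times their AP level. With 3 clutches a region and 19896 genes tested, limma called 3 genes higher in VP at an adjusted p under 0.05 (0.0151% of the tested genes), pgat.L, ston1.S and wnk2.L. It called 2 lower (0.0101%), mprip.L and mex3b.L, and the adjusted p was 0.0186 for each of these 5 (0.0251%). An unadjusted p under 0.05 was reached by 206 genes higher in VP (1.04%) and 1060 lower (5.33%). The number of calls was 3, 1 and 1 without AP replicate 1, 2 or 3 and 2, 0 and 2 without VP replicate 1, 2 or 3. Without every experiment 1 library of replicate number 1, 2 or 3, in both regions and at all times, it was 0, 24 and 1. With only the 6 hpf groups of experiment 1 in the fit, 16 genes were called higher in VP and 280 lower.

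WNK kinases regulate ion cotransporters in mammals. One of them, wnk2.L, had 173, 184 and 163 in AP against 3787, 2584 and 4229 in VP, and in experiment 2 it had 160 and 168 against 2195 and 2401. The regions stood far apart in both experiments, with a ratio of means of 20.4 in experiment 1 and 14.0 in experiment 2, and a log2 difference of 4.31 (SE 0.93, n = 3). The endocytic adaptor stonin 1, ston1.S, had 138, 300 and 1 in AP against 3012, 790 and 3860 in VP. Its experiment 2 values were 67 and 56 against 2084 and 1569. Again no AP library reached the lowest VP library, and the log2 difference was 5.58 (SE 1.18, n = 3).

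The germ plasm transcript pgat.L was nearly absent from the animal region. It was listed at 0, 0 and 1 in AP, while VP had 1772, 965 and 884 in VP, and experiment 2 had 4 and 11 against 447 and 511. The fitted log2 difference of 9.83 (SE 2.1, n = 3) depends on the 1 added to each value before the logarithm. When the mean of the experiment 2 libraries was added as 1 more clutch, limma called 13 genes, among them all 5 of the above. The 11 called higher in VP then also included the maternal transcripts hwa.L, grip2.L, ddx25.L and vegt.L, with adjusted p from 0.00438 to 0.0377.

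**Figure D1:**
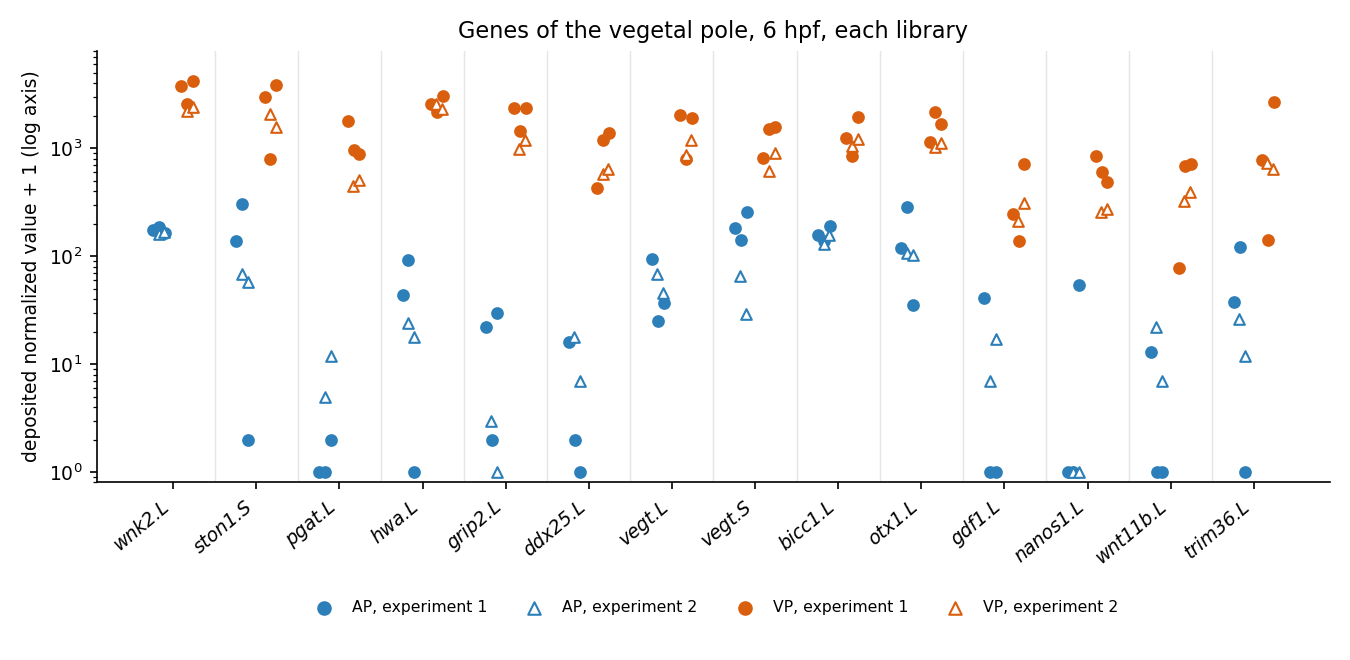
Deposited normalized values plus 1 (log axis) of 14 genes in each of the 10 libraries of 6 hpf. Circles are the 3 clutches of experiment 1 and triangles the 2 technical replicates of experiment 2; for wnk2.L the 5 VP libraries lie between 2195 and 4229 and the 5 AP libraries between 160 and 184.

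The gene lists here and below were drawn up with earlier results of these data known, so their shares and medians are a description alone. Among 32 genes listed as vegetally stored in the egg, 29 passed the filter on low values. Of these 29, 18 reached an unadjusted p under 0.05 with VP higher (62.1%, against 1.04% of all tested genes) and none with VP lower. The 1 called was pgat.L. VP and AP libraries did not overlap in both experiments for 20 of the 29, always with VP higher, against 204 of 19896 (1.03%) over all tested genes. The median log2 difference of the list was 4.49 in experiment 1 and 4.1 in experiment 2, and over all tested genes it was -0.59 and -0.12. Summed over the list, values were 18223 to 30293 in VP and 1549 to 2706 in AP in experiment 1, and 15101 to 16565 against 1294 to 1466 in experiment 2.

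Determinants of endoderm and of the dorsal axis were in this list. Maternal VegT is a T-box activator of endoderm and mesoderm genes, and its copy vegt.L had 94, 24 and 36 in AP against 2052, 789 and 1893 in VP. Experiment 2 gave 68 and 45 against 866 and 1202, so the regions were apart by 30.7-fold and 18.3-fold in their means. Its other copy, vegt.S, had 180, 139 and 258 in AP against 808, 1507 and 1568 in VP. The 64 and 28 against 619 and 897 of experiment 2 separated that copy too. Neither copy passed alone, with adjusted p of 0.211 for vegt.L and 0.713 for vegt.S.

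Huluwa is a membrane protein needed for the dorsal organizer. Its gene hwa.L had 43, 91 and 0 in AP against 2544, 2154 and 3047 in VP, and experiment 2 had 23 and 17 against 2591 and 2288. The lowest VP library was at 2154 and the highest AP library at 91, and the log2 difference was 7.33 (SE 1.70, n = 3, adjusted p 0.0644). The ligand Vg1, gdf1.L, was listed at 40, 0 and 0 in AP against 245, 137 and 709 in VP, and experiment 2 had 6 and 16 against 210 and 310. For the Wnt ligand wnt11b.L the values were 12, 0 and 0 in AP against 77, 687 and 716 in VP, with 21 and 6 against 320 and 394 in experiment 2. The lowest VP library was above each AP library for both ligands. The protease pcsk6.L can cleave TGF-beta family precursors, and it had 62, 57 and 0 in AP against 225, 678 and 1046 in VP. Experiment 2 listed it at 13 and 0 against 313 and 298.

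Cortical and cytoskeletal factors of the vegetal side followed. The ubiquitin ligase trim36.L, needed for the vegetal microtubule array, had 37, 120 and 0 in AP against 779, 140 and 2707 in VP. VP replicate 2 was barely above the highest AP library, while experiment 2 had 25 and 11 against 726 and 646. Its copy trim36.S overlapped in experiment 1, with 21, 36 and 0 against 0, 275 and 337, and was apart in experiment 2, with 29 and 0 against 257 and 220. The actin nucleator spire1.S had 118, 202 and 0 in AP against 561, 649 and 1177 in VP. It stayed apart in experiment 2, at 86 and 73 against 444 and 569. Genes of fatty acid use and lipid droplets were also in the list. The acyl-CoA synthetase gene acsl1.L had 147, 60 and 0 against 1245, 890 and 910. The lipid droplet coat gene plin2.S overlapped in experiment 1, with 649, 360 and 516 in AP against 1385, 196 and 1677 in VP. In experiment 2 plin2.S was apart, with 260 and 190 against 927 and 1125. For the copy plin2.L the ratio of means of VP to AP was 2.9 in experiment 1 and 4.55 in experiment 2. Both copies of rapgef5, a guanine nucleotide exchange factor, had very low values, and rapgef5.L had 11, 4 and 0 in AP against 0, 0 and 0 in VP, and 6 and 39 against 4 and 13 in experiment 2.

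Some germ plasm genes had high values in VP alone and others had like values in both regions. Of 21 tested, 9 reached an unadjusted p under 0.05 with VP higher (42.9%, against 1.04% of all tested genes) and 0 with VP lower in the limma test. In both experiments 10 were apart with VP higher (47.6%, against 1.03%). In experiment 2, 13 were apart with VP higher (61.9%, against 12.5%) and 3 with VP lower (14.3%, against 21.4%). The median log2 difference was 2.45 in experiment 1 and 2.2 in experiment 2. This list shares members with the vegetally stored list, pgat.L among them, so the results of these lists are not independent. The scaffold gene grip2.L had 21, 1 and 29 in AP against 2359, 1441 and 2336 in VP, and 2 and 0 against 973 and 1202 in experiment 2. The helicase ddx25.L, known as DEADSouth, had 15, 1 and 0 against 426, 1186 and 1390, and 17 and 6 against 573 and 644. The translational repressor nanos1.L had 0, 0 and 53 against 848, 602 and 487. In experiment 2 it was listed at 0 in both AP libraries and had 255 and 270 in VP. These 3 genes were thus high in all 5 VP libraries, and their AP values were at most 53.

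Other germ line genes overlapped between the regions in experiment 1. The helicase gene ddx4.L (vasa) had 190, 11 and 90 in AP against 196, 55 and 0 in VP, with 146 and 45 against 120 and 141 in experiment 2. The Tudor domain gene tdrd6.L had 318, 175 and 344 in AP against 277, 197 and 227 in VP. In experiment 2, tdrd6.L had 212 and 191 in AP against 109 and 183 in VP. The values of ddx4.L overlapped in both experiments, and tdrd6.L was apart with VP lower in experiment 2.

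RNA-binding proteins and translational regulators held a second set of this kind. Of 66 tested members, 5 reached an unadjusted p under 0.05 in limma with VP higher (7.58%, against 1.04% of all tested genes). With VP lower there were 4 (6.06%, near the 5.33% of all tested genes), with mex3b.L called. In both experiments 9 were apart with VP higher (13.6%, against 1.03% of all tested genes) and 0 with VP lower (1.72%). Of the 9, bicc1.L, bicc1.S, dnd1.L, nanos1.L and dazl.L belong to the 2 lists above as well. Bicaudal C represses translation of maternal mRNAs, and bicc1.L had 156, 138 and 190 in AP against 1242, 847 and 1950 in VP, 8.35-fold in the means. In experiment 2 it had 129 and 157 against 1057 and 1226, 7.98-fold.

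The other 4 encode factors of mRNA decay and storage. The deadenylase-binding protein gene tob2.L had 154, 249 and 120 in AP against 1160, 881 and 1539 in VP, and 129 and 101 against 765 and 851 in experiment 2. Its ratio of means was 6.85 in experiment 1 and 7.03 in experiment 2. The AU-rich element binding protein gene zfp36l2.L had 373, 448 and 564 in AP against 918, 1703 and 1606 in VP. In experiment 2 it had 439 and 497 against 1621 and 1418, and the ratios of means were 3.05 and 3.25. The helicase ddx6.L, a repressor of stored mRNAs, had 199, 306 and 175 against 1054, 832 and 807, and 128 and 106 against 624 and 549. The P-body gene lsm14b.L had 239, 162 and 97 against 665, 911 and 322, and 211 and 184 against 623 and 550. None of the 4 passed, with adjusted p of 0.722, 0.791, 0.81 and 0.841 in the limma test. All 5 VP libraries of each lay above its 5 AP libraries. The 4 were taken from the members apart in both experiments, so the separation within each experiment is part of the choice. All 4 are L copies. For ddx6.S the ratio of means of VP to AP was 1.062 in experiment 1 and 1.057 in experiment 2. For lsm14b.S it was 1.166 and 1.103, and for tob2.S it was 1.4 in experiment 2. The copy zfp36l2.S overlapped in experiment 1, with 193, 928 and 487 in AP against 1327, 531 and 952 in VP. In experiment 2 zfp36l2.S was apart with VP higher, at 651 and 615 against 2035 and 1907.

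Genes outside the lists were named by a rule that required the regions to be apart in both experiments, so their separation is part of the choice. The chromatin remodeller atrx.L had 227, 368 and 57 in AP against 2545, 1579 and 2530 in VP, with a ratio of means of 10.2, and experiment 2 gave 10.6. The lamellipodin gene raph1.S, which acts on actin at the cell edge, had 90, 111 and 21 against 803, 1261 and 1820. Its experiment 2 values were 335 and 392 against 3485 and 3281, higher in both regions than in experiment 1. The phosphatase gene ctdspl.S had 222, 78 and 203 against 2128, 1496 and 2075, and 445 and 380 against 1948 and 2189. The mRNA export gene thoc6.L had 59, 46 and 1 against 890, 1553 and 1280, and 422 and 525 against 1647 and 2227. Its AP level differed so much between the experiments that the ratio of means was 35.1 in the first and 4.09 in the second. The endoplasmic reticulum gene rtn3.S and the endosomal gene zfyve26.L completed the set. They had 1, 0 and 0 against 365, 391 and 1009, and 49, 0 and 0 against 617, 644 and 1471. Adjusted p was 0.0957 for zfyve26.L and 0.211 for the other 5.

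**Figure D2:**
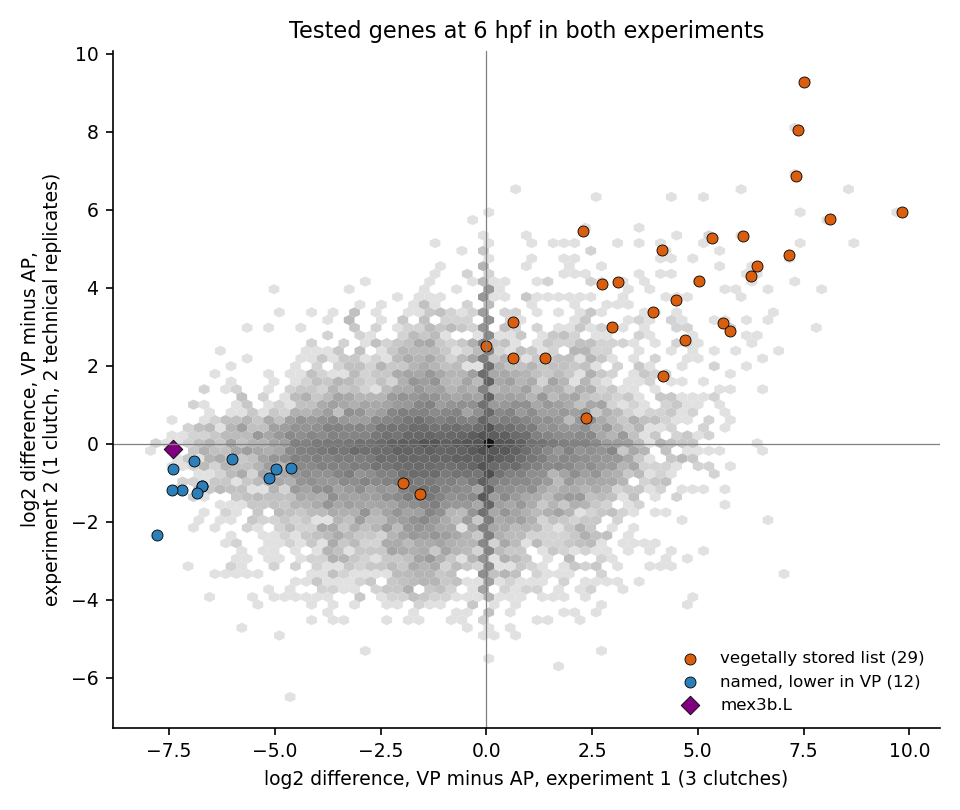
Log2 difference of VP minus AP for the 19896 tested genes in experiment 1 (x axis) and experiment 2 (y axis); darker hexagons hold more genes. The 29 vegetally stored genes (orange) lie mostly at the upper right, the 12 named genes lower in VP (blue) lie nearer 0 in experiment 2 than in experiment 1, and mex3b.L (purple) is near 0 in experiment 2. The blue genes were chosen as apart in both experiments with the smallest p in experiment 1, so their place is partly set by the choice.

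Experiment 2 was used to check the direction of the genes of experiment 1 in a further clutch. In experiment 1 the regions were apart for 498 genes with VP higher (2.5%) and for 1139 with VP lower (5.72%), and in both experiments for 204 and 343 (1.03% and 1.72%). The experiments were opposed for 89 genes that were higher in VP in experiment 1 (0.447%) and for 98 that were lower (0.493%). Of the 206 genes at an unadjusted p under 0.05 with VP higher, 70.9% were higher in VP in experiment 2, where 38.3% of all tested genes were, and their median log2 difference there was 1.25. Of the 1060 with VP lower, 64.3% were lower in experiment 2, where 56.3% of all tested genes were, with a median of -0.26. At an unadjusted p under 0.01 the shares were 82.4% of 74 genes and 66.9% of 248. The same-direction shares of the 2 sets were not compared by a test. Over all tested genes the log2 differences of the 2 experiments had a Pearson r of 0.13, given as a description across genes, which share libraries and are not independent.

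The genes lower in VP stand beside fewer detected genes in the VP libraries of experiment 1. With the number of detected genes as a covariate, mprip.L, mex3b.L and bicd2l.L were the 3 called lower in VP, with log2 differences of -7.23, -7.28 and -7.52 and limma adjusted p of 0.00303, 0.00303 and 0.00679. That alternative was chosen after seeing the data. Every VP library of experiment 1 at this time had fewer detected genes than every AP library. Region and detection thus went together, so a call with the covariate cannot separate them. The cause of the lower VP values was not tested. Among genes lower in VP, the smallest p without the covariate was that of mprip.L, whose protein brings myosin phosphatase to actin in mammals. It had 413, 753 and 539 in AP against 15, 0 and 0 in VP, a log2 difference of -7.78 (SE 1.58, n = 3). In experiment 2 it had 982 and 785 against 113 and 265, so VP was again lower, by 4.68-fold in the means. The copy mprip.S had 248, 419 and 469 against 138, 208 and 4, and 516 and 348 against 187 and 146. It was apart in both experiments but did not pass (adjusted p 0.805). The RNA-binding protein gene mex3b.L had 69, 366 and 188 in AP and was listed at 0 in all 3 VP libraries. Experiment 2 went against this, with 81 and 106 in AP against 116 and 62 in VP, and mex3b.S overlapped in both experiments.

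The other genes named as lower in VP in both experiments had smaller differences in experiment 2 than in experiment 1. They were chosen as apart in both experiments with the smallest p in experiment 1, so this is partly set by the choice. Their ratio of means of AP to VP in experiment 2 was at most 2.4, for uprt.L. Among these genes, bicd2l.L had 368, 435 and 483 in AP against 1, 7 and 0 in VP, yet 241 and 235 against 190 and 119 in experiment 2. The zinc finger gene znf609.S had 560, 296 and 531 against 0, 0 and 73, and 353 and 319 against 166 and 151. Their log2 differences were -7.40 and -6.73 in experiment 1 and -0.66 and -1.08 in experiment 2. For tgif2.S, a homeobox repressor in TGF-beta signalling, the values were 273, 337 and 826 against 122, 0 and 13, and 163 and 201 against 91 and 105. The remaining 8, among them the elongation factor gene eef1a1.L, the stress granule gene g3bp2.L and the ubiquitin-conjugating enzyme gene ube2k.S, had adjusted p from 0.491 to 0.573. None of these 8 was called with the covariate for detected genes either, nor were znf609.S (log2 difference -5.72, adjusted p 0.164) and tgif2.S (-3.95, adjusted p 0.471). None of these genes was called in limma without that covariate, so the lack of a call with it shows nothing about detection.

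Markers of animal cells mostly overlapped between the regions in experiment 1. Of 14 tested animal maternal genes 1, dand5.S, reached an unadjusted p under 0.05 with VP lower in the limma test (7.14%, near the 5.33% of all tested genes). With VP higher there were 0, against 1.04% of all tested genes. The median log2 difference was -0.45 in experiment 1 and -0.06 in experiment 2, near that of all tested genes. Summed over the list, VP had 5921 to 6203 and AP 5710 to 7314 in experiment 1, and VP 4274 to 4933 and AP 5275 to 5749 in experiment 2. The sums overlapped between regions in the first and were lower in VP in the second. The SoxB1 gene sox3.L had 699, 982 and 426 in AP against 1028, 929 and 986 in VP, and zic2.L had 570, 559 and 628 against 1144, 374 and 438. Of the defining animal markers foxi2, sox3, zic2, zfand4 and dand5, dand5.S was listed at 0 in 2 VP libraries and the other copies in none. Of the defining vegetal markers, hwa.L, both copies of trim36, gdf1.L and grip2.L were listed at 0 in at least 1 AP library and both copies of vegt in none. In such pieces of tissue, fewer cells of a type and less RNA per cell cannot be told apart.

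In experiment 2, 5 of the 14 animal maternal genes (35.7%) and 9 of 34 ectoderm genes (26.5%) were apart with VP lower, beside 21.4% of all tested genes. With VP higher there were 1 (7.14%) and 2 (5.88%), beside 12.5%. Dand5, an antagonist of BMP, Nodal and Wnt ligands, is encoded by both copies of dand5. The copy dand5.S had 310, 184 and 116 in AP against 0, 24 and 0 in VP, and 196 and 145 against 32 and 75 in experiment 2. The copy dand5.L overlapped in experiment 1, with 393, 140 and 460 against 41, 610 and 319, and had 309 and 207 against 127 and 127 in experiment 2. The maternal ectoderm activator foxi2.L had 460, 495 and 477 in AP against 480, 404 and 315 in VP, which overlap. In experiment 2 it had 572 and 586 against 288 and 239, and foxi2.S 463 and 529 against 186 and 217, ratios of 2.2 and 2.46. Both foxi2 copies thus overlapped in experiment 1 and stood apart in experiment 2, and the difference between experiments was not tested.

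Of 34 tested ectoderm genes, 1 reached an unadjusted p under 0.05 with VP lower (2.94%, against 5.33% of all tested genes) and 2 were apart in both experiments with VP lower (5.88%, against 1.72% of all tested genes). These 2 were both copies of grhl1, a grainyhead-like factor of epidermis. The copy grhl1.S had 717, 626 and 814 in AP against 437, 85 and 62 in VP, and 618 and 616 against 130 and 154 in experiment 2, ratios of 3.69 and 4.34. For grhl1.L the values were 226, 301 and 308 against 148, 127 and 156, and 269 and 185 against 137 and 123. Neither passed, with adjusted p of 0.80 for grhl1.S and 1 for grhl1.L. The AP-2 gene tfap2c.L overlapped in experiment 1, with 446, 497 and 390 against 452, 42 and 350, and had 522 and 626 against 197 and 237 in experiment 2. Its copy tfap2c.S overlapped in experiment 1 too, with 405, 328 and 740 in AP against 0, 347 and 172 in VP. In limma its unadjusted p was 0.00976 and its adjusted p 0.608. In experiment 2 tfap2c.S was apart with VP lower, at 542 and 424 against 316 and 267. The keratin gene krt18.1.L was opposed between experiments. It had 226, 236 and 261 in AP against 6, 44 and 19 in VP in experiment 1, but 113 and 56 against 190 and 129 in experiment 2.

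**Figure D3:**
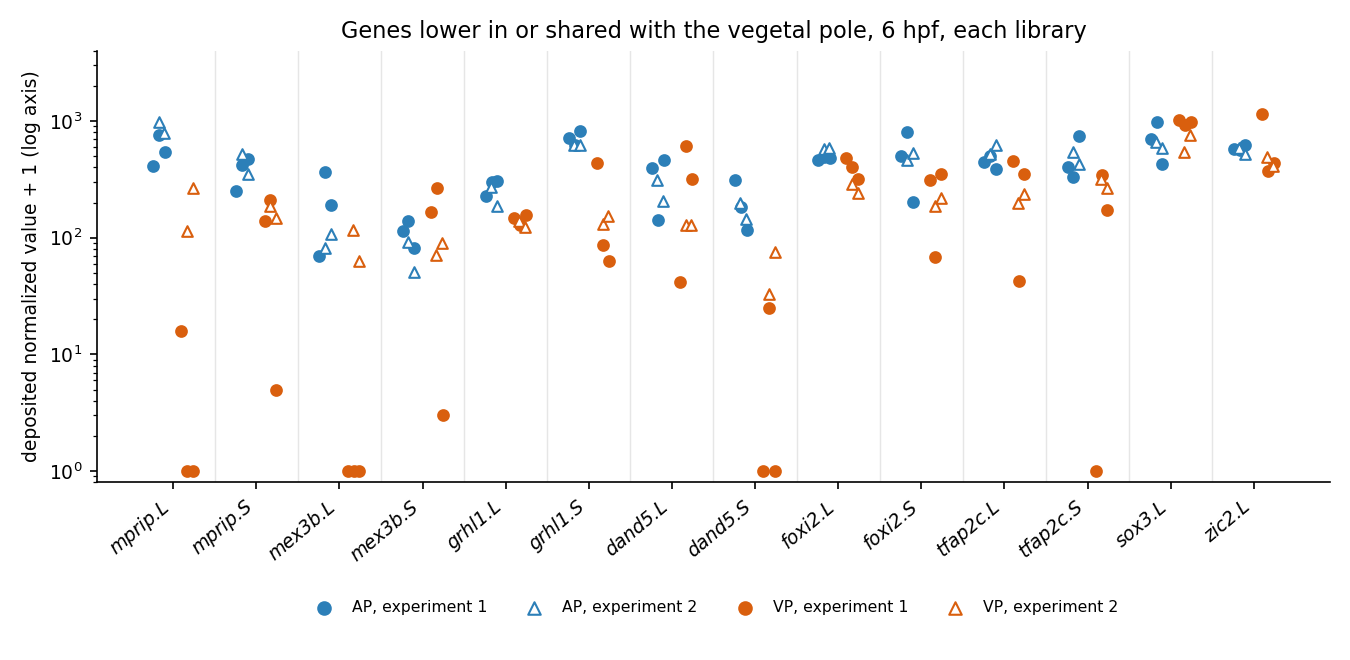
Deposited normalized values plus 1 (log axis) of 14 genes in each of the 10 libraries of 6 hpf, with circles for experiment 1 and triangles for experiment 2. For grhl1.S and mprip.L the 5 VP libraries lie below the 5 AP libraries, and for sox3.L and zic2.L they overlap.

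Early zygotic genes of the vegetal side were mostly listed at 0 at 6 hpf in experiment 1, and more of them were above 0 in experiment 2. The lists of Siamois and Nodal genes, of endoderm factors and of organizer and mesoderm genes held 67 tested genes together. Of the 67, 39 were listed at 0 in all 6 libraries of experiment 1, as were 2268 of the 19896 tested genes. Of the 67, 1 was above 0 in all 3 of its VP libraries. In experiment 2, whose libraries all had more detected genes than those of experiment 1, 18 were above 0 in both VP libraries and 10 in both AP libraries. For 8 genes both VP libraries were above 0 with both AP libraries listed at 0, and for 2 genes the reverse held. These experiment 2 counts were not made over all tested genes. In list order, 23.1%, 37.5% and 6.67% of members were apart in experiment 2 with VP higher, against 12.5% of all tested genes. With VP lower the shares were 0%, 4.17% and 3.33%, against 21.4%. A gene with an AP library listed at 0 cannot be apart with VP lower, so these low shares are partly set by zeros in AP. In experiment 1 limma called 0 of the 67, and 3 reached an unadjusted p under 0.05, nodal5.L and snai1.L with VP higher and tbxt.S with VP lower. In list order the shares with VP higher were 7.69%, 0% and 3.33%, against 1.04% of all tested genes. With VP lower they were 0%, 0% and 3.33%, against 5.33%. Each list held at most 1 such gene per direction.

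Nodal ligands induce mesendoderm. In experiment 2, nodal5.2.L was listed at 0 in both AP libraries and had 25 and 34 in VP, and nodal6.S was listed at 0 in AP and had 32 and 34 in VP. Neither was above 0 in any 6 hpf library of experiment 1. By contrast nodal5.L had 130, 0 and 58 in the VP libraries of experiment 1 and was listed at 0 in all 5 AP libraries, with 25 and 0 in VP in experiment 2. For nodal6.L the VP values were 0, 0 and 169, then 18 and 13, and all 5 AP libraries were listed at 0. These 4 genes were listed at 0 in every AP library of 6 hpf, and the VP values near 30 in replicate 4 rest on few reads at 3.5 per read. Other Nodal genes were above 0 in an AP library. The gene nodal3.2.L had 0, 91 and 0 in AP against 0, 0 and 0 in VP, and 0 and 0 against 18 and 0 in experiment 2. For nodal3.1.L the values were 0, 0 and 0 in AP against 0, 0 and 84 in VP, and 0 and 6 against 39 and 0.

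Genes known as targets of VegT and Nodal followed. The Mix family gene bix1.2.L had 0, 0 and 181 in the VP libraries of experiment 1, and 116 and 79 against 9 and 0 in AP in experiment 2. Its relative bix1.3.S had 70 and 49 in VP in experiment 2 and was listed at 0 in AP. The values of bix1.2.S were 28 and 82 in VP against 0 and 0 in AP. The endoderm factor sox17b.1.L had 67 and 67 in VP against 17 and 28 in AP in experiment 2, and 0, 133 and 0 against 15, 0 and 1 in experiment 1. The homeobox gene mix1.L had 32 and 17 in VP against 3 and 6 in AP, and 0, 87 and 0 against 0, 0 and 1. Each of these genes was thus high in 1 VP library of experiment 1 at most. In experiment 2, 9 of 24 endoderm genes were apart with VP higher (37.5%, against 12.5% of all tested genes). With VP lower there was 1 (4.17%, against 21.4%), hhex.S, with 20 and 17 in AP against 0 and 0 in VP. Members with an AP library listed at 0 could not be apart with VP lower. Experiment 2 also listed sox17a.L at 11 and 13 in VP against 6 and 11 in AP, which share the value 11.

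Of the 30 tested organizer and mesoderm genes, 0 were apart in both experiments with VP lower, against 1.72% of all tested genes. With VP higher there was 1, snai1.L (3.33%, against 1.03%). The gene snai1.L, a repressor of epithelial genes in migrating cells, had 5, 0 and 0 in AP against 53, 37 and 144 in VP. Experiment 2 had 0 and 0 against 21 and 70, and the adjusted p was 0.721. The Brachyury copy tbxt.S had 28, 66 and 166 in AP against 0, 0 and 1 in VP, and experiment 2 had 2 and 0 against 0 and 0. The Siamois gene sia1.L, a dorsal homeobox activator, was above 0 in 1 VP library, at 35, and in 1 AP library, at 2. Its relative sia2.S had 7 in VP replicate 1 and 28 in VP replicate 4 and was listed at 0 elsewhere.

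**Figure D4:**
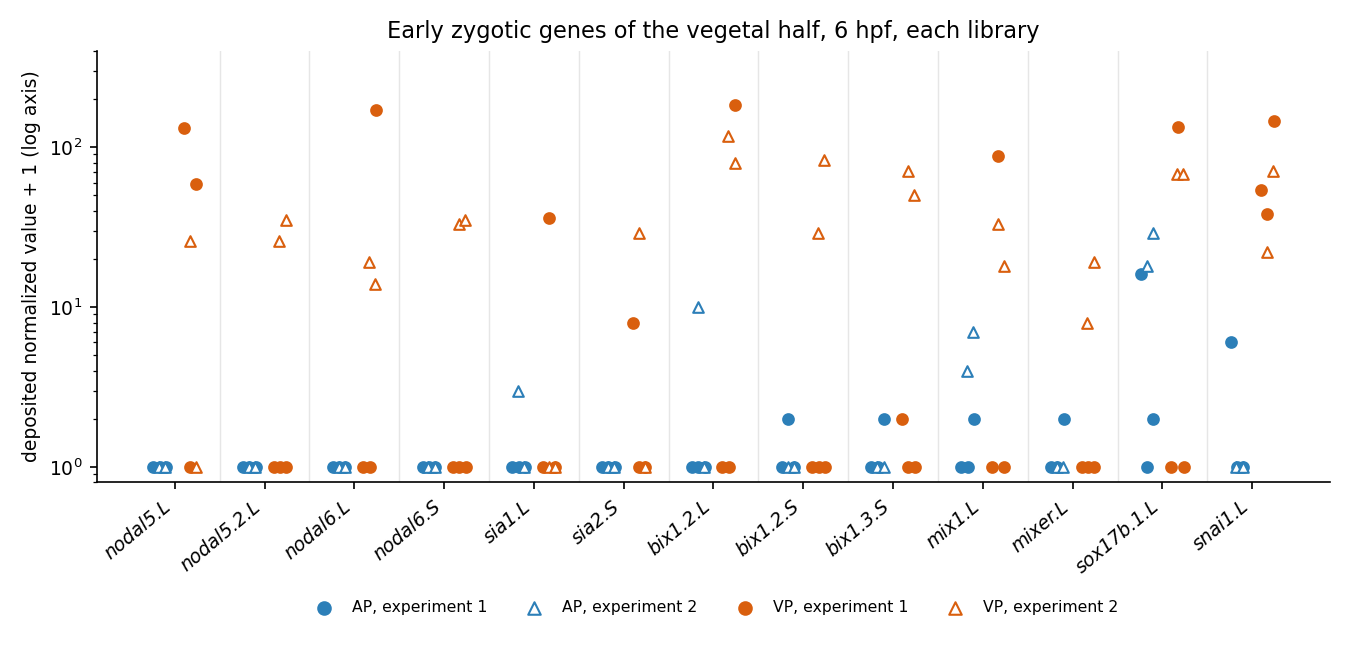
Deposited normalized values plus 1 (log axis) of 13 early zygotic genes in each of the 10 libraries of 6 hpf; a value of 1 on the axis is a gene listed at 0. Circles are experiment 1 and triangles experiment 2; nodal5.2.L and nodal6.S are above 0 in both VP libraries of experiment 2 and in no other of the 10 libraries.

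Ribosomal protein genes had lower medians in VP than the tested genes as a whole, with few at a low p. Of 135 ribosomal protein genes, 12 reached an unadjusted p under 0.05 with VP lower (8.89%, against 5.33%) and 1 with VP higher (0.741%, against 1.04%), and none was called in the limma test. Their median log2 difference was -1.59 in experiment 1 and -0.61 in experiment 2, beside -0.59 and -0.12 for all tested genes. In experiment 2, 45 were apart with VP lower (33.3%, against 21.4%) and 7 with VP higher (5.19%, against 12.5%). As an example rpl22.L had 72, 125 and 154 in AP and was listed at 0 in all 3 VP libraries of experiment 1, but had 51 and 44 in AP against 69 and 48 in VP in experiment 2. Of the 135, 4 were apart in both experiments with VP lower (2.96%, against 1.72%), rpl21.L among them with 40, 44 and 49 in AP against 0, 0 and 0 in VP. These zeros fell in libraries with fewer detected genes. No ribosomal protein gene was called with the covariate for detected genes, but none was called without it, so that fit cannot bear on the cause. The cause was not tested.

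Among 61 tested Wnt pathway genes 1 reached an unadjusted p under 0.05 with VP higher (1.64%, against 1.04% of all tested genes), wnt11b.L, and 2 with VP lower (3.28%, against 5.33%). In both experiments 1 was apart with VP lower (1.64%, near the 1.72% of all tested genes), the receptor ryk.S. With VP higher there was 1 (1.64%, against 1.03%). The values of ryk.S were 587, 530 and 824 in AP against 260, 210 and 454 in VP, and 502 and 442 against 324 and 233. Its copy ryk.L overlapped in both experiments, with 444, 545 and 183 in AP against 932, 886 and 369 in VP. In experiment 2 ryk.L had 653 and 588 in AP against 683 and 534 in VP. Of 61 TGF-beta pathway genes, 2 reached an unadjusted p under 0.05 with VP higher (3.28%, against 1.04%), gdf1.L and pcsk6.L. With VP lower there were 3 (4.92%, against 5.33%). The endocytosis and WNK list (40 tested) held ston1.S and wnk2.L and the actin and cortex list (43 tested) held mprip.L, and both lists were drawn up with these genes known. Their medians were -0.78 and -0.60 in experiment 1, near the -0.59 of all tested genes.

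**Figure D5:**
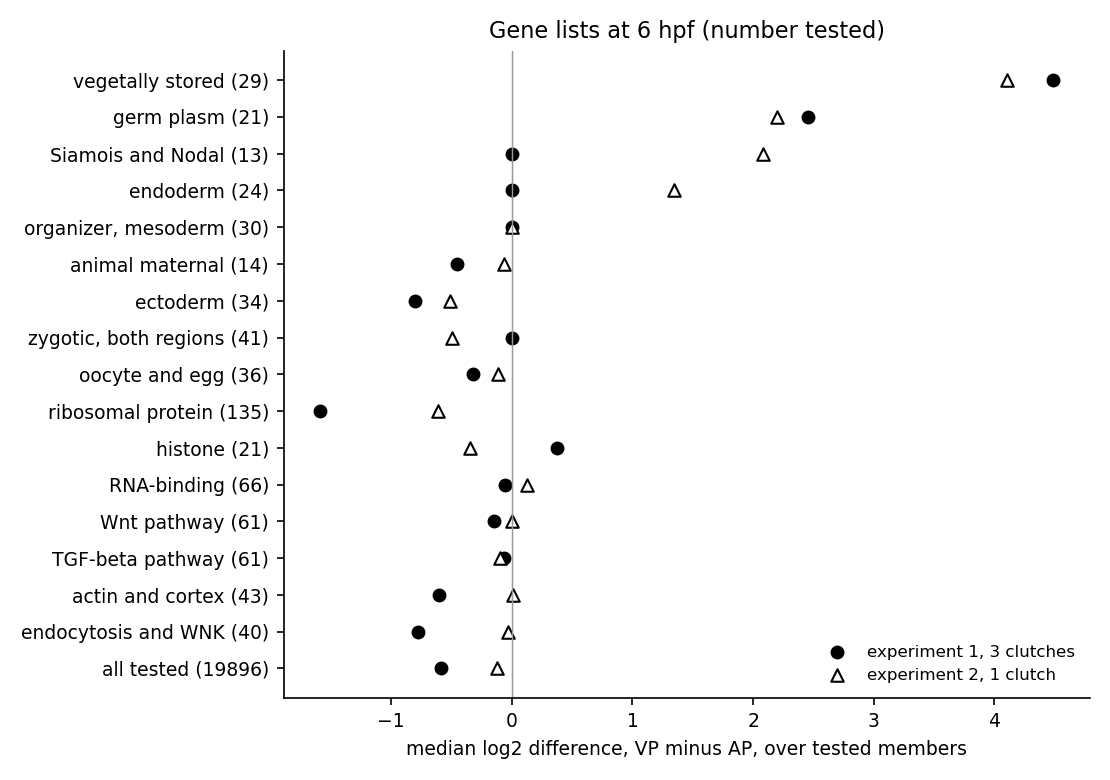
Median log2 difference of VP minus AP over the tested members of each gene list, with the number tested in brackets; filled circles are experiment 1 and open triangles experiment 2. The vegetally stored list is at 4.49 and 4.1 and the germ plasm list at 2.45 and 2.2, while all tested genes are at -0.59 and -0.12. The lists were drawn up with earlier results of these data known, and the germ plasm list shares members with the vegetally stored list.

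The stage was also set beside 5 hpf and 9 hpf of experiment 1, by testing whether the difference between VP and AP itself differed. From 5 to 6 hpf limma called 1 gene (0.00503% of the tested genes), mex3b.L, and 1057 reached an unadjusted p under 0.05 (5.31%). The difference between VP and AP at 9 hpf minus that at 6 hpf was called for 0 genes in limma, with 834 at an unadjusted p under 0.05 (4.19%). Medians of that second contrast were 5.60 for the Siamois and Nodal list, 6.04 for the endoderm list and 5.64 for the organizer and mesoderm list, against 0.13 for all tested genes. In that order, 7 of 13, 15 of 24 and 17 of 30 tested members were listed at 0 in all 6 experiment 1 libraries of 6 hpf. Such members passed the filter on low values only through other times, so the medians are partly set by the filter and are a description alone. At 9 hpf mix1.L had 18, 321 and 0 in AP against 6200, 3143 and 3800 in VP, and nodal6.L was listed at 0 in all 3 AP libraries and had 558, 318 and 734 in VP. The regions were apart at 9 hpf for both genes, where at 6 hpf they overlapped in experiment 1.

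The vegetally stored list had a median of -1.77 for the 6 minus 5 hpf contrast and -0.48 for the 9 minus 6 hpf contrast. All tested genes had medians of -0.90 and 0.13 in these contrasts. In VP, hwa.L had 2891, 3440 and 3014 in the libraries of 5 hpf, the 2544, 2154 and 3047 given above, and 1243, 937 and 2209 in those of 9 hpf. The libraries of 5 hpf held 2667, 1965 and 1460 for grip2.L in VP, those of 6 hpf 2359, 1441 and 2336, and those of 9 hpf 2052, 986 and 3264. The values of 5 and 6 hpf overlapped for both genes.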

How the data were processed

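RNA carrying EU was captured and sequenced from AP and VP regions at 5 to 9 hpf after depletion of ribosomal RNA, per the labels' protocols. Reads were quantified by the authors in Salmon (version 0.12.0) and normalized in DESeq2, per the submitters' processing notes. For the version of DESeq2, the genome build, the annotation and the treatment of reads shared by near-identical L and S copies, nothing was found: not given in the sources used here. Deposited values are whole numbers, treated as a score (normalized, rounded counts), so no count test was run, although the design had allowed for raw counts. Summing the 50489 entries by name left 49233, and 17515 of the 19896 tested genes (88.0%) matched RefSeq symbols.

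A gene was tested if it had a value of 10 or more in 3 or more experiment 1 libraries. The logarithm was log2(value + 1), and limma 3.58.1 (R 4.3.3) was fitted to all 30 libraries of experiment 1 in 10 groups, with a mean trend, robust settings, two-sided moderated tests and Benjamini-Hochberg adjustment over all tested genes. Experiment 2 entered one alternative fit alone, as 1 more clutch. The code was tested on simulated data. Regions are called apart where no library of one reaches a library of the other.

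The members and lists were chosen with earlier results of these data known. The text names called genes, up to 12 genes per direction that were apart in both experiments and averaged 50 or more in the higher region, a set of markers, up to 6 members per list with the highest mean, and genes called in a contrast of differences. Other list members were chosen after their values were seen. Equal replicate numbers were not treated as pairs. Alternatives covered scaling, filters, the added constant, the libraries fitted, library weights, the replicate block, that added clutch, summed L and S copies and left-out libraries. Results for 1 further gene are left out here.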

Additional observations from a re-analysis of the deposited data

Results flagged for a closer look

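The difference between VP and AP for mex3b.L, an RNA-binding protein gene, itself differed between 5 and 6 hpf in experiment 1: the fitted log2 difference at 6 hpf minus that at 5 hpf was -12.14 (SE 2.21, limma adjusted p 0.00148, n = 3 libraries per group). At 5 hpf it had 139, 2 and 0 in AP against 92, 75 and 1117 in VP, and at 6 hpf it had 69, 366 and 188 in AP and was listed at 0 in all 3 VP libraries. The fitted value depends on the 1 added to each value. Leaving out replicate 3, which held the 1117, or summing the L and S copies ended the call. The VP libraries of experiment 2 at 6 hpf had 116 and 62, and experiment 2 was not sampled at 5 hpf. At 7 hpf the VP values of experiment 1 were 166, 227 and 105. The cause was not tested.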

How the results depend on the processing

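The 5 calls of the VP against AP comparison became 1 with upper-quartile scaling, 9 with a filter of at least 10 in 6 libraries, 19 and 36 with 5 and 20 added in place of 1, 296 (16 higher in VP, 280 lower, 3 of the 5 shared) with only the 6 hpf groups of experiment 1 fitted, 13 with experiment 2 as 1 more clutch, 38 with library weights and 12 with L and S copies summed. In alternatives chosen after seeing the data they became 26 with the number of detected genes as a covariate and 15 with a mean of at least 50; over left-out replicates and libraries they ranged from 0 to 27, the last without VP replicate 2 of 8 hpf. Calls in the 6 minus 5 hpf contrast (1) became 2 without a filter, 9 with only its groups, 2 with the covariate and 0 with summed copies, and 0 to 1 over left-out libraries. Calls in the 9 minus 6 hpf contrast (0) became 17 without a filter, 9 with 20 added and 2 with that added clutch. The cause of these changes was not tested. Of 575 values of 25 named genes, none changed direction, 426 kept their side of the threshold, 52 lost a call and 97 gained one. These 25 genes were chosen as called or as apart in both experiments, and all were apart in experiment 1. Their unchanged direction was thus largely set by that choice. Upper-quartile scaling moved the median of all genes from -0.59 to -0.90. With the replicate block the 3 contrasts gave 7, 1 and 0 calls; residual correlations between AP and VP at 6 hpf were 0.0051 to 0.0401 for equal numbers and -0.0435 to 0.0048 for unequal ones. Unknown depth limits what a listed 0 means.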

Other observations

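Some genes outside the lists, chosen after their values were seen, were apart in both experiments with VP higher and were called when 20 was added in place of 1 before the logarithm. The acetyltransferase gene ep300.L had 347, 613 and 880 in AP against 2029, 2735 and 4483 in VP, and 614 and 572 against 2541 and 2617. The kinesin gene kif13b.L had 14, 65 and 0 against 435, 1134 and 1134, and 23 and 50 against 628 and 610. The heparan sulfate endosulfatase gene sulf1.L had 28, 0 and 0 against 364, 532 and 828, and 17 and 6 against 300 and 455. In the reported limma test their adjusted p values were 0.523, 0.32 and 0.356, in that order.

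Of 21 histone genes tested, 0 reached an unadjusted p under 0.05 in either direction in limma. The median log2 difference was 0.37 in experiment 1 and -0.35 in experiment 2. In experiment 2, 9 were apart with VP lower (42.9%, against 21.4% of all tested genes) and 2 with VP higher (9.52%, against 12.5%). Among the latter, the gene h2bc11.S had 4436, 7540 and 9939 in AP against 8150, 5801 and 12740 in VP, and 13648 and 13457 against 15241 and 15072 in experiment 2.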
